A study of Mus musculus with 12 samples.

Results

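Chemokines are small secreted proteins that direct the movement of cells through G protein-coupled receptors. The genes described here are every ligand gene whose symbol in the array's gene table begins with Ccl, Cxcl, Xcl or Cx3c and every receptor gene named Ccr or Cxcr with a number, or Cx3c, where the transcript cluster (the set of probes summarised as 1 value) carried a single symbol. Where several clusters named the same gene, the brightest over all arrays was used. This gave 50 genes out of 19938 with a single-symbol cluster, covering 55 clusters out of 35556, and 7 more clusters that listed several symbols, among them the Ccl21 and Ccl27 families, were left out. The set was proposed with results of these arrays in view: members were chosen by symbol and by brightness, and Ccl17 was picked out by its difference between these groups as the strongest member, so its values are given as a description.

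In the brain, chemokines come from neurons, glia, vessels, the meninges and resident or visiting immune cells. Fractalkine (Cx3cl1) is made by neurons and signals to Cx3cr1 on microglia, and Cxcl12 acts through Cxcr4 in the placement of neurons and in vessels. Most inflammatory ligands, such as Ccl2, Ccl3 and the neutrophil attractants Cxcl1 and Cxcl2, are low in undisturbed tissue and are induced by cytokines through factors such as NF-kB, while Ccl17 is a product of dendritic cells and macrophages that interleukin 4 induces through STAT6 and GM-CSF (Csf2) also induces.

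The measurements were 12 whole-transcript arrays of septum RNA, 1 for each of 6 lactating and 6 virgin adult female mice. All 12 mice belonged to a single line bred for strong maternal aggression from outbred hsd:ICR stock, were about 70 days old and were housed alone at the end. Lactating mice had lived with a breeder male, were killed on postpartum days 6 to 8, and so differed from virgins in mating, pregnancy, birth, nursing and contact with pups together. Virgin mice had shared a cage with other females and were in estrus or diestrus, with the stage of each mouse not given in the labels. The labels' protocol speaks of punches of lateral septum and the paper of whole septum, and the tissue of each mouse gave 1 sample, with no pooling across mice.

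Intensities are given on the deposited linear scale, and differences as lactating minus virgin on the log2 scale after adding 16 to each intensity, which understates the change of dim genes. Array medians ranged from 319.6 to 339.1 and pairs of arrays correlated at 0.987 to 0.994 across clusters. Mean intensity of the 50 genes ran from 39.8 for Cxcr2 to 4318 for Cx3cl1 with a median of 202, against a median of 429.9 over all genes, and 39 of the 50 lay below that median. The table holds no detection call, so whether a dim gene was above background could not be judged. The call for each gene rests on the limma fit across all clusters. A p named exact comes from a two-sided permutation test of that gene alone over all splits of 6 against 6. None of the 12 septum markers (among them Zic1, Zic2, Dlx1, Sst and Nts) differed at an unadjusted p under 0.05, and their summed intensity ran from 23535 to 27103 in lactating and from 23440 to 27042 in virgin mice.

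Virgin mouse 6 stood apart. In it 46 of all genes were at least 2-fold above every other array (both with 16 added), against 13 in lactating mouse 4, 1 in virgin mouse 4 and 0 in each of the other arrays. Among the chemokines, Cxcl13, which attracts B cells, read 2496 in virgin mouse 6 and 242 to 378 in the other 11 mice, and Ccl3, a macrophage and microglia product, read 988 against 160 to 215. Where leaving out this mouse ended, added or turned a call described here, this is stated.

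**Figure D1:**
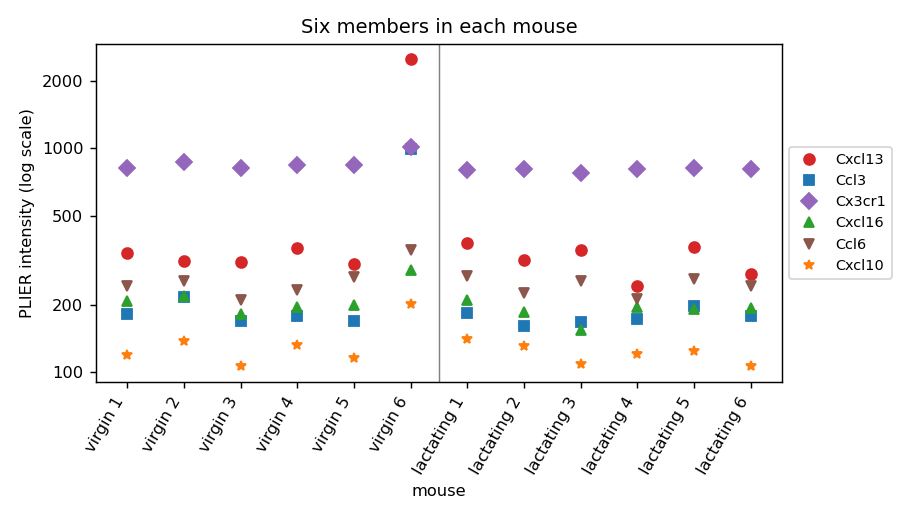
Intensity (log scale) of Cxcl13, Ccl3, Cx3cr1, Cxcl16, Ccl6 and Cxcl10 in each of the 6 virgin and 6 lactating mice, 1 point per array. Virgin mouse 6 is the highest for all 6 genes, with Cxcl13 at 2496 and Ccl3 at 988, while the other 11 mice lie in a narrow band for each gene.

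At an unadjusted p under 0.05 by limma, 5 of the 50 genes were lower in lactating mice, namely Ccl17, Ccr10, Ccl11, Cxcl2 and Cx3cr1, and 0 were higher. Over all genes, 4.83% were lower and 3.86% higher at the same threshold, among genes below the median intensity 8.34% were lower and 1.53% higher, and among genes above it 1.32% were lower and 6.18% higher. The same shares are the background for the counts over the other gene lists below. After Benjamini-Hochberg adjustment over all 35556 clusters, 0 of the 50 and 0 of all clusters passed 0.05. The difference was below 0 for 42 of the 50 and above 0 for 8, with a median of -0.08, against -0.0043 over all genes, -0.05 over the genes below the median intensity and 0.03 over those above it. The share of all genes with a difference below 0 was not taken. The 39 dimmer members had a median of -0.08 with 3 lower and the 11 brighter members -0.05 with 2 lower. Without virgin mouse 6 the median was -0.06 and 5 members were lower, with Cxcr4 in place of Cx3cr1, beside 3.24% of all genes lower and 2.51% higher.

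**Figure D2:**
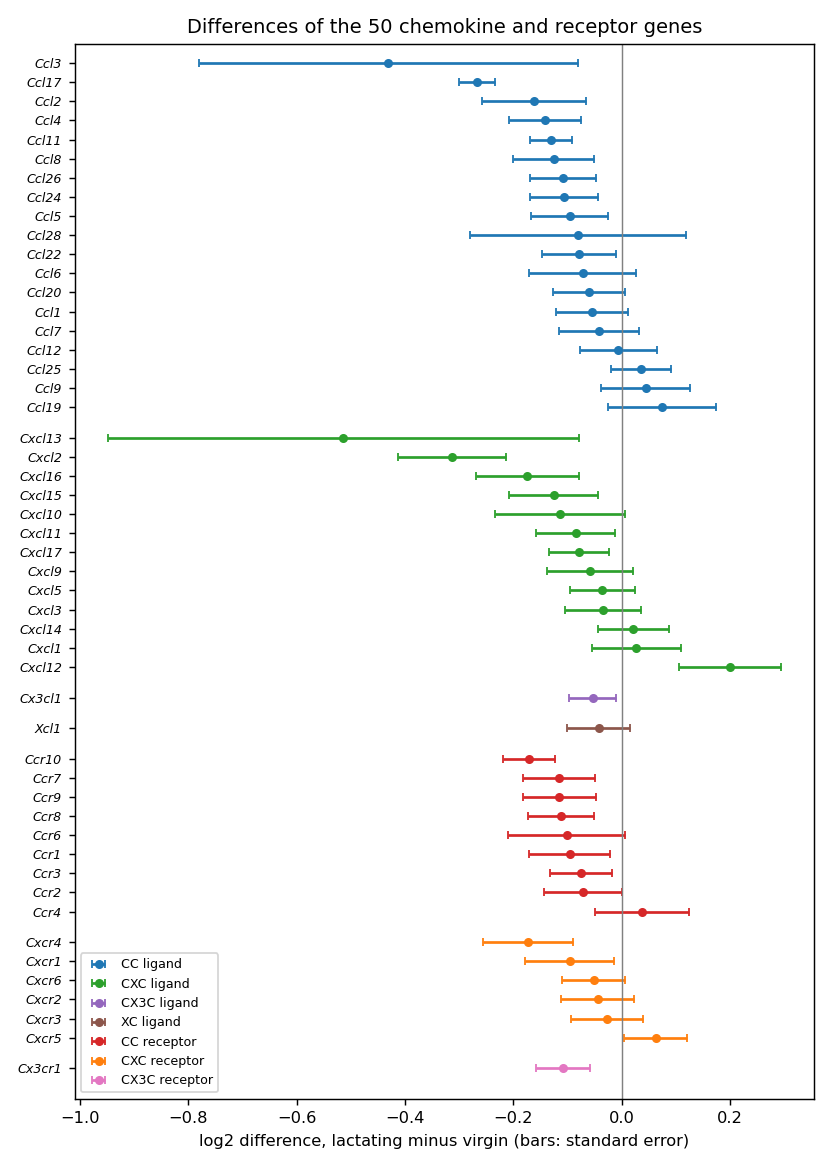
Difference between lactating and virgin mice (log2, lactating minus virgin) for each of the 50 genes, sorted within ligand and receptor families. Points are limma estimates over 6 and 6 mice, bars are 1 standard error, and 42 points lie below 0, with Ccl3 and Cxcl13 carrying the widest errors. No share of all genes below 0 was taken to set beside this count.

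By family, 16 of 19 CC ligands had a difference below 0 (median -0.08, from -0.43 for Ccl3 to 0.07 for Ccl19), as did 10 of 13 CXC ligands (median -0.08, from -0.51 for Cxcl13 to 0.20 for Cxcl12). Of the receptors, 8 of 9 CC receptors (median -0.10, from -0.17 for Ccr10 to 0.04 for Ccr4) and 5 of 6 CXC receptors (median -0.05, from -0.17 for Cxcr4 to 0.06 for Cxcr5) were below 0. These counts could not be set beside all genes, whose share below 0 was not taken. Genes below the median intensity, where 39 of the 50 members lay, themselves had a median of -0.05. The groups did not overlap for 3 members, Ccl17, Ccl11 and Cx3cr1, all lower in lactating mice, where 0.201% of all genes had every lactating mouse below every virgin mouse and 0.251% every lactating mouse above. In bulk tissue, fewer cells of a type and less RNA per cell cannot be told apart.

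Ccl17, the ligand of Ccr4 known for attracting helper T cells of the type 2 class and regulatory T cells, lies next to Cx3cl1 and Ccl22 in the RefSeq gene order of chromosome 8. The 250 bases before the RefSeq start of each are shown because these 3 ligands are neighbours with unlike differences, followed by Cxcl2, the called member with the largest change. All windows are on the + strand of GRCm38.p6 (Ccl17 chr8:94810203-94810452, Ccl22 chr8:94745434-94745683, Cx3cl1 chr8:94771930-94772179, Cxcl2 chr5:90903649-90903898), and capitals mark motif matches.
Ccl17: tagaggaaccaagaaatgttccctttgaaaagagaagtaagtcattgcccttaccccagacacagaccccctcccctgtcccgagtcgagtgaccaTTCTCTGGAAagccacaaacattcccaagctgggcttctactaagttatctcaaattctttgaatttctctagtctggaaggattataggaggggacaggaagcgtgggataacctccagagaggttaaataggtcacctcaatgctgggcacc
Ccl22: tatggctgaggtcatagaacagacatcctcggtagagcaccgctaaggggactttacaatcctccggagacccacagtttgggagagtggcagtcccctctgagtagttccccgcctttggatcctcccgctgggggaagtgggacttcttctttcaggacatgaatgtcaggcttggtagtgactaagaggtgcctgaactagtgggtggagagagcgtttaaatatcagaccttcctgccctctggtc
Cx3cl1: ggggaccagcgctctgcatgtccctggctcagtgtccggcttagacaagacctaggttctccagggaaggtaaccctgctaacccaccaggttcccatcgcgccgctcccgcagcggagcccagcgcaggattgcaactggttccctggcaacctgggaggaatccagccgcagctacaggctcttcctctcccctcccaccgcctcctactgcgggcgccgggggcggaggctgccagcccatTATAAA
Cxcl2: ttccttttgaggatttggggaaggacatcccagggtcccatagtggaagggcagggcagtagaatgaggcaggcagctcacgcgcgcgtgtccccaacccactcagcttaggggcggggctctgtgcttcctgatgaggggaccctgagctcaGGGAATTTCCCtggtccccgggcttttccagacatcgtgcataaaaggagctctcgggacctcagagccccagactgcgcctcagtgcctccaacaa

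On both strands, 4 motifs were searched: STAT6 (TTC and GAA with any 4 bases between), AP-1 (TGANTCA), the TATA box (TATAAA) and the NF-kB consensus. The Ccl17 window held 1 STAT6 match, TTCTCTGGAA, from -154 to -145 relative to the start, and 5.85% of 32851 RefSeq windows of the same length held this motif. The Cx3cl1 window held TATAAA from -6 to -1, a motif in 12.4% of windows. The Cxcl2 window held the NF-kB consensus GGGAATTTCC from -97 to -88 and an overlapping match on the other strand from -96 to -87, against 7.25% of windows with a match, and the Ccl22 window held none of the 4. Of the 50 genes, 36 matched a RefSeq window, in 38 windows, of which 1 held the STAT6 motif, 10 the NF-kB consensus, 4 the AP-1 motif (6.75% of all windows) and 10 TATAAA. Ccr10 and Ccl11 were not among the 36. A match describes letters only and is no measure of binding.

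Ccl17 read 380, 421, 413, 412, 410 and 406 in lactating mice 1 to 6 and 490, 496, 496, 507, 483 and 485 in virgin mice 1 to 6. Every lactating mouse lay below every virgin mouse, with a gap between 421 and 483, and lactating mouse 1 was the lowest of all. The mean was 407 ± 13.97 in lactating and 493 ± 8.74 in virgin mice (SD, n = 6 each), 17.4% lower, a difference of -0.27 (SE 0.033), and -0.27 again without virgin mouse 6. Its p was the smallest of all clusters in the limma fit and its adjusted p 0.0715, which did not pass 0.05, with 0.00416 to 0.358 across the other settings. Since Ccl17 was singled out with this difference known, and the paper lists it among the changed genes of these same arrays, that p is not independent evidence.

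Ccl22, the other main ligand of Ccr4, ran from 137 to 181 with a median of 151 in lactating and from 143 to 177 with a median of 167 in virgin mice. The groups overlapped almost fully and the difference was -0.08 (SE 0.068, exact p = 0.29). Ccr4 itself was dim, from 60.5 to 92.9 in lactating and from 69.1 to 91.0 in virgin mice, with a difference of 0.04 (SE 0.087, exact p = 0.70). Cx3cl1, the ligand next to Ccl17 in gene order, ran from 3985 to 4621 in lactating and from 4137 to 4645 in virgin mice, a difference of -0.05 (SE 0.043, exact p = 0.18).

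**Figure D3:**
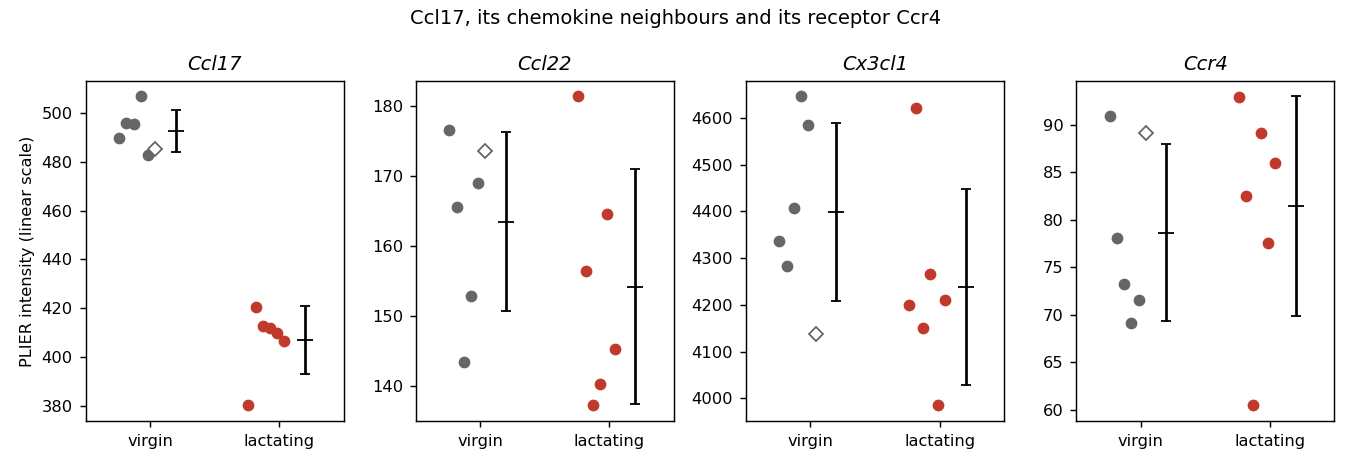
Intensity (linear scale, axes not starting at 0) of Ccl17, Ccl22, Cx3cl1 and Ccr4 in 6 virgin mice (grey, virgin mouse 6 as an open diamond) and 6 lactating mice (red), with the group mean ± SD beside the points. The Ccl17 groups do not overlap (380 to 421 against 483 to 507), while those of Ccl22, Cx3cl1 and Ccr4 do.

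Of the genes flanking these ligands in order, Rspry1, Arl2bp, Ciapin1, Coq9, Polr2c and Dok4 had differences from -0.02 to 0.05 with exact p from 0.048 for Arl2bp to 0.56, and none of these was called by limma. Pllp, a myelin protein gene that was named after its value was seen, was 1547 ± 196 in lactating and 1797 ± 82.0 in virgin mice (-0.22, limma p = 0.0091, exact p = 0.022), while 0 of 7 oligodendrocyte markers passed the same threshold.

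Genes known to induce chemokines were given as a list of 24. Of the list 2 were lower and 0 higher, with a median of -0.07, beside 4.83% of all genes lower and 3.86% higher. Without virgin mouse 6 the median was -0.04, and 1 was lower (Csf2) and 1 higher, Nfkbia, the NF-kB inhibitor gene, which moved from 0.16 with all mice to 0.19. Csf2, the gene of GM-CSF, was 130 ± 5.75 in lactating and 150 ± 6.42 in virgin mice, from 122 to 137 against 141 to 159 with no overlap. Its difference was -0.19 (SE 0.039, limma p = 0.00038, adjusted p 0.619), and the exact two-sided permutation test gave 0.00216, the smallest that 6 against 6 allows. The paper lists Csf2 among the changed genes of these same arrays, so its p-values are not independent evidence. Il4ra, the receptor chain for interleukin 4, was also lower (-0.11, exact p = 0.013), and at -0.09 without virgin mouse 6 it was no longer past the limma threshold. Stat6 (-0.06, exact p = 0.40), Il4 (-0.09, exact p = 0.10), Csf2ra (-0.10, exact p = 0.11) and Csf2rb (-0.11, exact p = 0.44), picked here because they act with these genes, did not pass. Dendritic cell markers, 15 genes of which 0 passed and 0 were at 0, had a median of -0.09 and summed to 3369 to 3634 in lactating and 3392 to 4374 in virgin mice (3911 at most without virgin mouse 6). Their part in the Ccl17 values was not tested.

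Ccr10, the receptor for Ccl27 and Ccl28, ran from 233 to 276 with a median of 244 in lactating and from 260 to 298 with a median of 283 in virgin mice. Lactating mouse 1 was the only lactating mouse that reached the virgin range. The difference was -0.17 (SE 0.048, limma p = 0.0034, exact permutation p = 0.0087) and -0.16 without virgin mouse 6. Ccl28, its epithelial ligand and a ligand of Ccr3, varied widely, from 256 to 534 in lactating and from 216 to 529 in virgin mice, with the highest reading in lactating mouse 4 and a difference of -0.08 (SE 0.20, exact p = 0.71).

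Ccl11 (eotaxin), which attracts eosinophils through Ccr3 and is made by fibroblast-like and epithelial cells, ran from 199 to 220 in lactating and from 220 to 243 in virgin mice. The groups did not overlap, although the highest lactating mouse and the lowest virgin mouse both round to 219.9. The difference was -0.13 (SE 0.039, limma p = 0.0057, exact permutation p = 0.00216), and -0.11 (p = 0.015) without virgin mouse 6. Ccr3 ran from 99.5 to 121 in lactating and from 109.5 to 136 in virgin mice (-0.07, exact p = 0.23). The 8 meninges and fibroblast markers had 0 genes past the threshold and a median of 0.15, and summed to 5218 to 9880 in lactating and 4180 to 6032 in virgin mice. Of these 8 genes, 7 were highest in lactating mouse 4, and sums without that mouse were not taken.

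Cxcl2, a neutrophil attractant acting on Cxcr2, was among the dimmest members, at 38.9 to 67.9 with a median of 55.4 in lactating and 60.6 to 84.4 with a median of 69.2 in virgin mice. Lactating mice 1 and 5 fell inside the virgin range. The difference was -0.31 (SE 0.10, limma p = 0.0080, exact permutation p = 0.0173) and -0.29 (p = 0.019) without virgin mouse 6. The related ligands Cxcl1 (0.03, exact p = 0.77) and Cxcl3 (-0.03, exact p = 0.64) and the receptor Cxcr2 (-0.04, exact p = 0.54) had overlapping groups. Among 10 neutrophil and mast cell markers, S100a9 (-0.18, exact p = 0.054) and Ngp (-0.15, exact p = 0.058), both neutrophil genes, were lower by limma. On this list 0 were higher, beside 4.83% of all genes lower and 3.86% higher. That list summed to 1806 to 1991 in lactating and 1914 to 2143 in virgin mice with 0 genes at 0, and without virgin mouse 6 none of its genes passed.

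Cx3cr1, the fractalkine receptor of microglia, ran from 778 to 814 with a median of 805 in lactating and from 819 to 1013 with a median of 842 in virgin mice. The groups did not overlap, and virgin mouse 6 at 1013 stood above the next virgin mouse at 868. The difference was -0.11 (SE 0.049, limma p = 0.0482, exact permutation p = 0.00216). Without virgin mouse 6 it was -0.06 and not past the limma threshold (limma p = 0.0757), and the exact permutation test was not repeated. The remaining virgin mice, from 819 to 868, still lay above every lactating mouse. Of the members, Cx3cr1 lay just inside the limma threshold, and Ccl4 (p = 0.0536, exact p = 0.0758), Cxcl12 (p = 0.0541, exact p = 0.0866) and Cxcr4 (p = 0.0573, exact p = 0.0758) just outside.

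**Figure D4:**
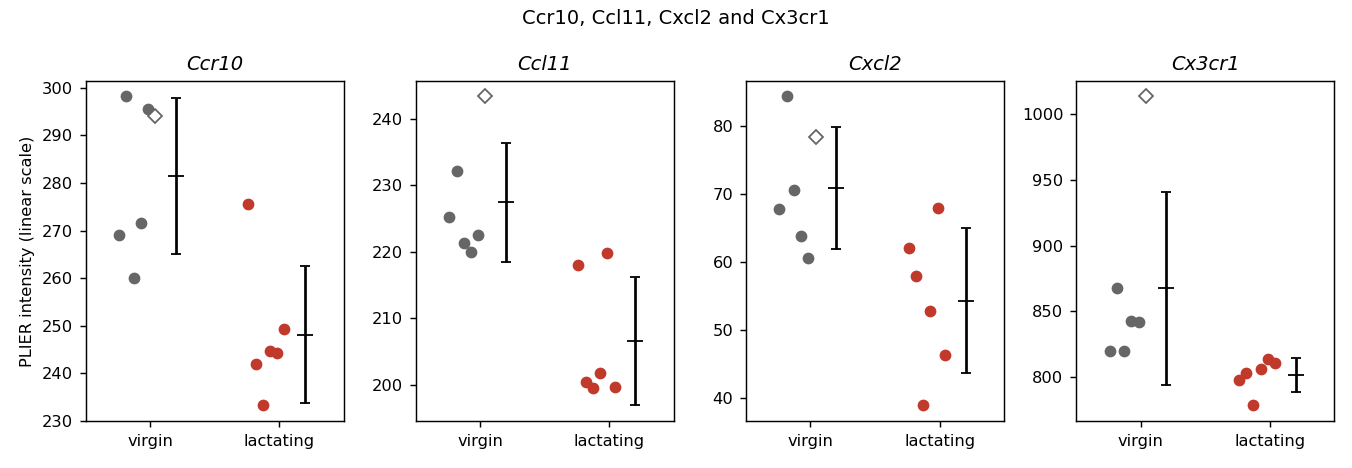
Intensity (linear scale, axes not starting at 0) of Ccr10, Ccl11, Cxcl2 and Cx3cr1 in 6 virgin mice (grey, virgin mouse 6 as an open diamond) and 6 lactating mice (red), with the group mean ± SD beside the points. Ccl11 and Cx3cr1 separate the groups completely, and virgin mouse 6 at 1013 sits above all others for Cx3cr1.

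Of 17 microglia markers, P2ry12 (738 ± 35.3 against 802 ± 15.0, -0.12, exact p = 0.0087), Trem2 (-0.18, exact p = 0.039) and Siglech (-0.10, exact p = 0.035) were lower and 0 were higher, with a median of -0.10. Without virgin mouse 6 the median was 0.03 and P2ry12 alone remained past the threshold. P2ry12 is also listed by the paper as changed in these same arrays, so its p-values are not independent evidence. Over all genes 4.83% were lower with all mice and 3.24% without virgin mouse 6. The 17 markers summed to 9351 to 10191 in lactating and 9613 to 14798 in virgin mice, or 10012 at most without virgin mouse 6, and 0 were at 0. In virgin mouse 6, Cd68 was 1586, C1qb 2208 and Ctss 1351, against at most 779, 1330 and 645 in the other virgin mice, while P2ry12 (806) and Tmem119 (459) were within the range of the other virgin mice. The part of these markers in the Cx3cr1 difference was not tested.

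Cxcl12, made by meningeal, vascular and some neuronal cells, was the member with the highest positive difference. It ran from 460 to 710 with a median of 602 in lactating and from 465 to 573 with a median of 504 in virgin mice, with 4 lactating mice above every virgin mouse and lactating mouse 1 the lowest of all 12. The mean was 592 ± 94.0 against 509 ± 38.0 and the difference 0.20 (SE 0.094, limma p = 0.0541, exact permutation p = 0.0866). It was past the threshold in 5 of the other settings that kept all mice, such as array weights (0.26). Cxcr4, its signalling receptor, ran from 224 to 305 in lactating and from 272 to 347 in virgin mice (-0.17, exact p = 0.0758), and was at -0.20 (limma p = 0.0396) without virgin mouse 6. Ackr3, which binds Cxcl12 and removes it, was 303 ± 18.8 against 305 ± 18.0 (-0.01, exact p = 0.83). Endothelium and mural markers, 11 genes of which 0 passed, had a median of 0.0036. The meninges and fibroblast list had its median at 0.15 (0.23 without virgin mouse 6), and 7 of its 8 genes were highest in lactating mouse 4, the mouse with the highest Cxcl12. The Cxcl12 difference was 0.15 without lactating mouse 4 and 0.16 without lactating mouse 2, not called in either case. It was called by limma without lactating mouse 1 (0.27), lactating mouse 6 (0.24) or virgin mouse 4 (0.23), and with no other mouse left out. The part of the meninges and fibroblast markers in the Cxcl12 values was not tested.

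Among the homeostatic ligands of lymphoid tissue, Ccl19 ran from 752 to 1227 in lactating and from 764 to 935 in virgin mice, with lactating mouse 4 at 1227 above the other 11, and a difference of 0.07 (SE 0.10, exact p = 0.60). The array held 5 Ccl19 clusters, 2 with identical values, with differences from 0.06 to 0.08. Ccr7, the receptor for Ccl19 and Ccl21, ran from 406.5 to 471 in lactating and from 402 to 514 in virgin mice (-0.12, exact p = 0.13). Cxcl13 differed by -0.51 (SE 0.43, exact p = 0.40) with virgin mouse 6 and by -0.03 without, and its receptor Cxcr5 by 0.06 (exact p = 0.30). Ccl3 likewise stood at -0.43 (SE 0.35, exact p = 0.29) with virgin mouse 6 and -0.04 without, and Ccl4, its close relative, read 278 in virgin mouse 6, within the virgin range of 258 to 301 (-0.14, exact p = 0.0758). Ccl5 (-0.10, exact p = 0.23) and Ccr1 (-0.10, exact p = 0.25), a receptor for Ccl3 and Ccl5, did not pass. Cxcl14 ran from 2767 to 3070 in lactating and from 2523 to 3257 in virgin mice (0.02, exact p = 0.75).

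The 26 members not yet described were not called. They include the ligands of Ccr2 (Ccl2, Ccl7, Ccl12), of Cxcr3 (Cxcl9, Cxcl10, Cxcl11) and of Cxcr6 (Cxcl16), and their differences lay within the ranges given for their families, while Xcl1, the only XC ligand, was at -0.04 (exact p = 0.47). Of 14 lymphocyte markers, Cd79b (-0.18, exact p = 0.0065), Ms4a1 (-0.16, exact p = 0.017), Cd3e (-0.13, exact p = 0.026), Cd8a (-0.12, exact p = 0.035) and Cd4 (-0.29, exact p = 0.065) were lower by limma, 0 were higher, and 0 were at 0. They summed to 2338 to 2797 in lactating and 2611 to 3107 in virgin mice, and 3 stayed past the threshold without virgin mouse 6. Over all genes 4.83% were lower with all mice and 3.24% without virgin mouse 6. Among genes below the median intensity 8.34% were lower and 1.53% higher with all mice. Whether the lymphocyte markers have a part in the receptor values was not tested.

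Many members were high or low in the same mice. Lactating mouse 3 gave the lowest value of all 12 mice for 23 of the 50 genes, virgin mouse 2 the highest for 17 and virgin mouse 6 the highest for 15. The median deviation of the members from their 12-mouse mean was -0.15 in lactating mouse 3, -0.10 in virgin mouse 3 and lactating mouse 6, 0.10 in virgin mouse 2 and 0.13 in virgin mouse 6. All genes below the median intensity moved alike, at -0.10 in lactating mouse 3, -0.05 in virgin mouse 3, -0.07 in lactating mouse 6, 0.11 in virgin mouse 2 and 0.06 in virgin mouse 6. The lower quartile of intensity over all clusters was 136 in lactating mouse 3 and 135 in lactating mouse 6, and 153 and 151 in virgin mice 2 and 6. After cyclic loess, which evens arrays over intensity, the member median was -0.05 against 0.00082 over all genes, and the same 5 members were called, beside 3.25% of all genes lower and 3.92% higher. The part of array intensity in the shared readings was not tested.

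**Figure D5:**
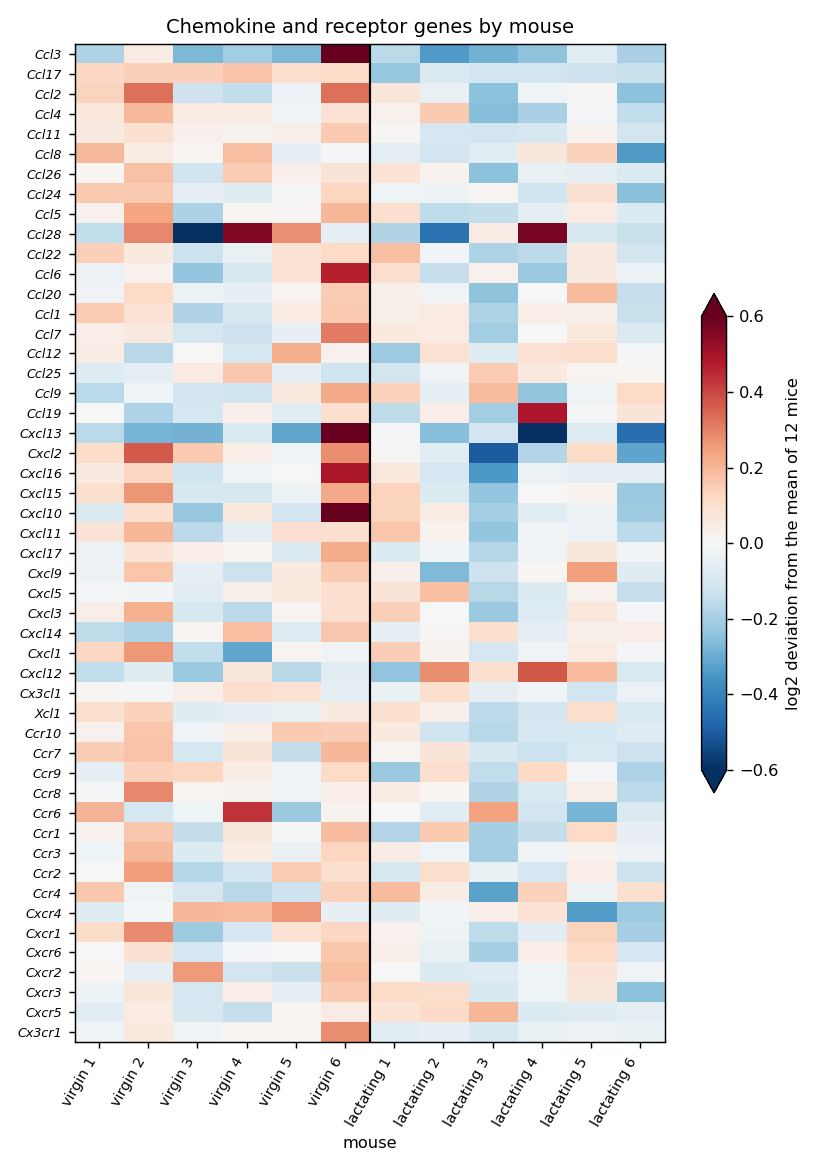
Deviation of each of the 50 genes (rows, sorted by family and difference) from its mean over 12 mice, on the log2 scale, in each mouse (columns, virgin left of the line, lactating right), with colours capped at 0.6 either way. Lactating mouse 3 is blue in most rows and virgin mice 2 and 6 are red, and Ccl17 is red in all virgin and blue in all lactating mice.

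Of 15 chemokine-related genes outside the name rule, such as atypical receptors and Mif, Ackr4, which clears Ccl19 and Ccl25, was lower (164 ± 8.60 against 178 ± 7.42, -0.10, exact p = 0.017) and 0 were higher, with a median of -0.01, and without virgin mouse 6 it was no longer past the limma threshold. Of 26 genes that signal below the receptors, Plcb2 was lower (-0.16, exact p = 0.037, and -0.11 without virgin mouse 6, no longer past the limma threshold) and 0 were higher, with a median of 0.02. Border macrophage and monocyte markers, 10 genes of which 0 passed, summed to 2722 to 3153 in lactating and 2725 to 4894 in virgin mice, or 2870 at most without virgin mouse 6. Their median was -0.05 with all mice and 0.01 without virgin mouse 6, where Cd36, a scavenger receptor gene, turned from -0.28 to 0.27 and was called higher by limma.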

How the data were processed

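RNA from the septum of 6 lactating and 6 virgin mice was hybridised to GeneChip Mouse Gene 1.0 ST arrays, 1 mouse each, with groups from the labels. The authors summarised probes to transcript clusters by PLIER with a GC-bin background correction in Affymetrix Power Tools 1.12.0, and the deposited values are linear intensities, all above 0. Here log2(intensity + 16) was fitted with limma 3.58.1 (lmFit, eBayes, two-sided) in R 4.3.3 over all 35556 clusters without a filter, with Benjamini-Hochberg adjustment. Unadjusted p-values are descriptive. Single genes also had an exact permutation test. The gene table held 1 symbol for 21789 clusters, several for 1621 and none for 12146, and the array's genome build is not given, so positions come only from RefSeq windows of GRCm38.p6. The fit was checked on simulated data. Arrays limit precision by their number.

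Members and lists were chosen with earlier results of these data known. Named in full were members at p under 0.05, the 10 brightest, their ligand or receptor partners and the chemokines next to Ccl17, and of other lists up to 4 genes at p under 0.05 and Csf2. Ccl3, Ccl4, Ccl6, Ccl7, Cxcl10, Cxcl16, Ccr8, Pllp and further list genes were named after their values were seen. Alternatives were scale, offset, filter, normalization, estimation, array weights, replicate block, mean over clusters and leaving out each mouse.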

Additional observations from a re-analysis of the deposited data

Results flagged for a closer look

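Each member was examined in each group for a mouse far from the other 5, 100 groups in all, and 9 stood out, where chance marks about 1 in 20 groups. Of these, 5 came from virgin mouse 6: Cxcl13 (2496, next 359), Ccl3 (988, next 215), Cx3cr1 (1013, next 868), Cxcl16 (286, next 219) and Cxcl10 (202, next 137). Ccl19 in lactating mouse 4 read 1227 with the next lactating mouse at 919. Ccr8, a receptor for Ccl1 and Ccl8, read 107 in virgin mouse 2 with the next virgin mouse at 87.6. Lactating mouse 3 was low for Ccr3 at 99.5, with the next at 114, and lactating mouse 1 was low for Ccl17 at 380, with the next at 406.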

How the results depend on the processing

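All statements rest on 12 arrays, 6 a group, with no detection call. The count of members higher moved from 0 to 1, in each case Cxcl12, with clusters above the median intensity, subtraction of each array median, trend and robust estimation and array weights, and ranged from 0 to 1 when each mouse was left out. The count of members lower moved from 5 to 2 with clusters above the median intensity, where 14 members were tested, and ranged from 4 to 9 when each mouse was left out, with 9 without virgin mouse 3. Among other list genes, 193 in all, 15 were lower and 2 higher, beside 4.83% of all genes lower and 3.86% higher. The lower count was 8 of 113 with clusters above the median intensity and 7 after subtraction of each array median, and 5 to 20 when each mouse was left out, with 5 without virgin mouse 6, 7 without lactating mouse 3 and 9 without lactating mouse 4. The higher count was 1 on linear intensities, 4 after subtraction of each array median and 5 with array weights, and 1 to 6 when each mouse was left out: 1 without lactating mouse 4 or 5 or virgin mouse 1, 2 or 5, 4 without lactating mouse 1 and 6 without virgin mouse 4. The causes were not tested. Shares over all genes were taken for the main fit, without virgin mouse 6 (3.24% lower and 2.51% higher) and after cyclic loess. They were not taken for the other settings or left-out mice, so a changed count there could not be set beside all genes. The median over the members stayed between -0.09 and -0.05 across the other settings and between -0.11 and -0.06 when each mouse was left out.

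Ccl17 kept its direction under every setting tried, at -0.28 to -0.24, and its adjusted p passed 0.05 on linear intensities, with clusters above the median intensity and after quantile and cyclic loess normalization. Of 452 values of the other 21 named members under alternatives, 415 kept direction and side of the threshold, 15 passed it newly, 13 lost it, all 13 of them Cx3cr1, and 9 turned direction, each for a member not called. Those 9 were Ccl19 without lactating mouse 4 (-0.0151), Cxcr2 without virgin mouse 3 (0.0024), Cxcl3 without lactating mouse 3 (0.0056) and without virgin mouse 2 (0.0043), Ccl28 without lactating mouse 2 (0.00072) and without virgin mouse 4 (0.023), Cxcl14 without virgin mouse 1 (-0.0064) and without virgin mouse 2 (-0.013), and Cxcl1 without virgin mouse 4 (-0.032). With each mouse left out in turn, Ccl19 ran up to 0.12, Cxcr2 down to -0.076, Cxcl3 to -0.070, Ccl28 to -0.22, Cxcl14 up to 0.060 and Cxcl1 to 0.082.

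Same-numbered mice share only a number as far as the labels show: their deviations correlated at -0.027 to 0.25, over 0.1 for 2 of 6 numbers. RNA had been extracted with 1 mouse of each group side by side, in a matching that the labels leave out. With the replicate number as a block, 8 members were called, 7 lower and 1 higher, among them Ccl26, Ccl4, Cxcl16 and Cxcl12 and without Cx3cr1, and 5 other list genes were higher. The share of all genes called in that fit was not taken.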

Other observations

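In virgin mouse 6 the genes furthest above the other arrays were not chemokines. Lcn2, an iron-binding protein of innate defence, read 10495 against 141 to 210 in the other 11 mice. Gpnmb (5819 against 128 to 191) and Mmp12 (4068 against 223 to 275), both genes of macrophages, stood beside Ltf (4334 against 142 to 171), Car6 (4255 against 178 to 235) and Cyp2f2 (4228 against 179 to 259), which are known from secretory epithelium. Keratin genes of stratified epithelium were raised too, Krt5 at 1960 against 231 to 311 and Krt14 at 1131 against 124 to 167.

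In lactating mouse 4, which gave the highest Ccl19, Cxcl12 and Ccl28, genes of excitatory cortical neurons stood above the other arrays, Slc17a7 at 3722 against 113 to 1163 and Tbr1 at 1170 against 172 to 415, as did Slc6a13 of the meninges at 953 against 321 to 450. Of 8 meninges and fibroblast markers, 7 were highest in this mouse. The part of these genes in its chemokine readings was not tested.

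Of 8 choroid plexus and ependyma markers, Clic6 was higher (0.16, exact p = 0.067) and Ccdc153 lower (-0.13, exact p = 0.048) in lactating mice by limma, and without virgin mouse 6, at 0.13 and -0.13, neither passed the threshold. Of the 2 blood markers measured, Alas2, an enzyme of heme synthesis in red cells, was higher (341 ± 67.3 against 268 ± 30.0, 0.31, exact p = 0.043). None of 8 astrocyte or 8 neuron markers passed an unadjusted p under 0.05, with medians of -0.0040 and 0.01.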
